A study of Mus musculus with 6 samples.

Results

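The genes described here encode the machinery of mitosis: the spindle checkpoint, the kinetochore, the mitotic kinases and their cyclins, the regulators of anaphase, the spindle motors and the proteins of cytokinesis. They are a list of 48 gene symbols, and all 48 had a row in the comparison of 17110 genes that the authors deposited. The cells were mouse embryonic stem cells of the line TG2A, all with a fluorescent protein under the control of MERVL, a retroviral element that two-cell embryos and a few cells in stem cell cultures express. Both groups were grown in serum with leukemia inhibitory factor and were parted only by fluorescence-activated sorting, into reporter-positive (DsRed2+, 3 samples) and reporter-negative cells (DsRed2-, 3 samples). The labels describe the replicates as biological and taken on different dates. They name 1 cell line and do not say whether the reporter cells were 1 clone, nor was a sort by cell-cycle phase recorded. Polyadenylated RNA was sequenced in bulk.

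The authors' deposited table gives 1 log2 fold change per gene with its standard error and no value per sample, so values per library, depth and spread between libraries are not analysed here. It does not state which sorted group is the numerator. A fold change is therefore called positive or negative as deposited, and neither word says which cells had more RNA. For orientation, the authors' deposited table gave log2 fold changes of 3.10 (SE 0.14) for Calcoco2, a gene reported in two-cell-like cells, and 1.10 (SE 0.092) for the pluripotency gene Zfp42. These values do not set the direction. Of 23 listed two-cell markers 5 had a row, and the Zscan4 genes, Zfp352 and Dux had none under these names. A gene is called below when its adjusted p-value in the authors' DESeq2 test was under 0.05. The authors' own label of up or down asked in addition for an absolute log2 fold change over 0.5.

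Mitosis begins when Cdk1, bound to cyclin A or cyclin B and released from inhibition by Cdc25 phosphatases, phosphorylates its targets together with the Polo and Aurora kinases. Microtubules attach to kinetochores, which assemble on centromeric chromatin that carries the histone variant CENP-A, and unattached kinetochores hold back the anaphase-promoting complex through the spindle checkpoint. Once the checkpoint is satisfied, the anaphase-promoting complex with Cdc20 marks securin and cyclin B for destruction, separase cuts cohesin, and the central spindle directs the ring that divides the cell. Transcripts of most of these genes are known to peak in G2 and mitosis, and embryonic stem cells in serum are known for rapid division with short gap phases. The series concerns division in the two-cell-like state, and the comparison asks how the sorted cells differ in these transcripts.

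Most mitotic genes were positive in this comparison, by modest amounts. Of the 48 genes in the authors' deposited table, 43 had a fold change above 0 and 5 below. Past the adjusted p-value threshold were 31 positive genes and 1 negative gene, and 16 were not called. Of all genes in the authors' deposited table, 14.6% were called positive and 15.9% negative. Of the mitotic genes, 47 had a mean normalized count of at least 1000. Among the 5780 genes above that limit, 18.3% were called positive and 12.6% negative, against 64.6% and 2.08% of the mitotic genes. The median mean count was 5284 for the mitotic genes and 2593 for the 5780 genes, with median standard errors of 0.092 and 0.11. The sets were thus not matched beyond the limit, and the 48 genes were chosen with earlier results of these data known. The median log2 fold change was 0.34 for the mitotic genes, 0.0097 for all genes and 0.057 for the 5780 genes, all from the authors' deposited table. With the fold changes centred on the ribosomal protein genes, 22 mitotic genes were called positive and 1 negative. Under that centring 10.9% of all genes were called positive, and the positive share of all calls moved from 47.8% to 34.7%. These RNAs come from whole populations, in which a different share of dividing cells and a different amount of RNA per dividing cell cannot be told apart.

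The sizes were small beside those at the edges of the whole comparison. Of the 31 positive genes, 10 exceeded a log2 fold change of 0.5 and carry the label up in the authors' deposited table, which is given to 9.4% of all genes and to 6.16% of those with a mean count of 1000 or more. The other 21 lay at or under that limit. The label down stands in the authors' deposited table beside 1 mitotic gene, beside 12.1% of all genes and beside 5.33% of those with a mean count of 1000 or more. The standard errors of the 48 genes ran from 0.070 to 0.19 with a median of 0.092. The standard deviation between genes was 0.32, so the genes differed among themselves by more than their median standard error. The interval of 4 genes, computed as 95% normal limits from the authors' standard error, lay wholly above 0.5. These were Ube2c, Nusap1, Cit and Ect2.

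**Figure D1:**
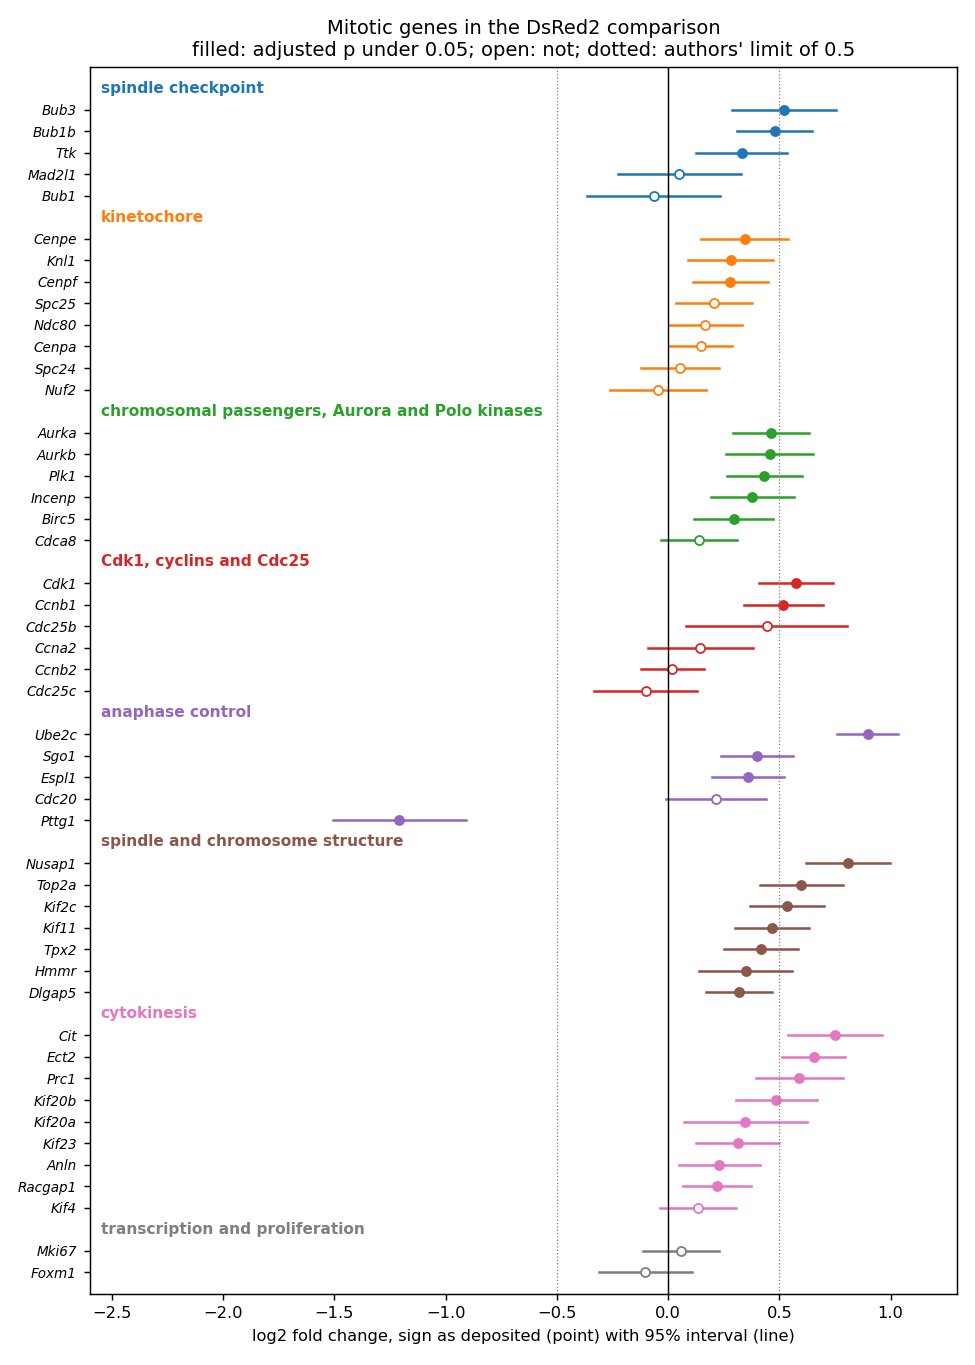
Log2 fold change of each of the 48 mitotic genes, sign as deposited (x axis), with its 95% normal interval as a line, grouped by role; filled points have an adjusted p-value under 0.05 and dotted lines mark the authors' limit of 0.5. All points but 5 lie to the right of 0, and Pttg1 at -1.21 stands alone on the left.

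**Figure D2:**
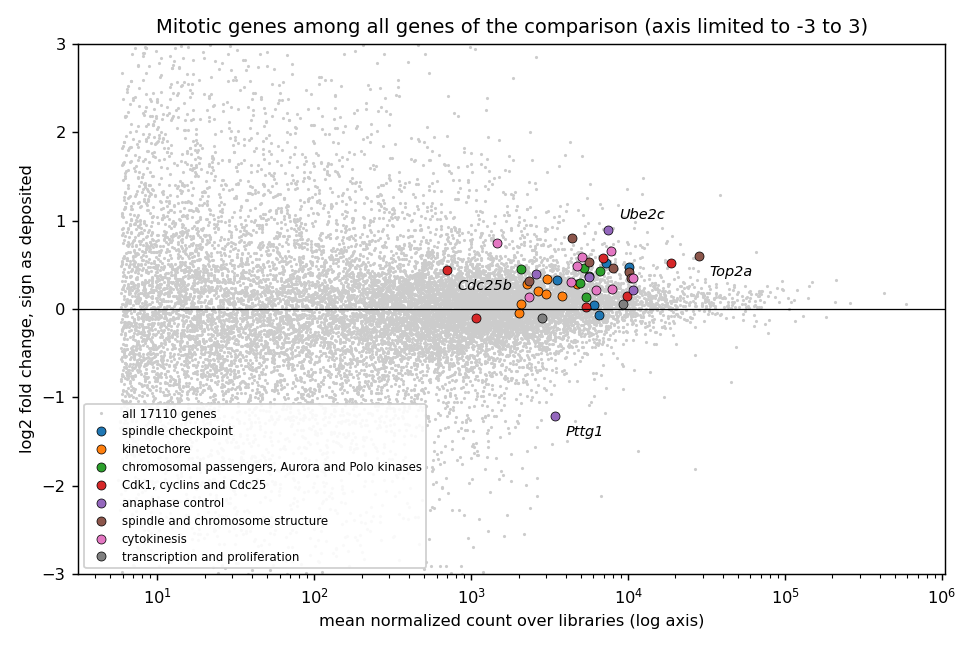
Log2 fold change, sign as deposited, against the mean normalized count on a log axis for all genes (grey) and the mitotic genes (coloured by role), with the y axis limited to -3 to 3. The mitotic genes lie at mean counts from 695.4 to 28164, and 43 of the 48 lie above 0.

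The checkpoint genes split. Bub1b, which encodes the BubR1 protein that binds Cdc20 in the inhibitory checkpoint complex, had a log2 fold change of 0.48 (SE 0.086, adjusted p-value 2.85e-07) in the authors' deposited table. Its partner Bub3 had 0.52 (SE 0.12, adjusted p-value 0.000104), and the kinase Ttk, also called Mps1, which starts the checkpoint signal, had 0.33 (SE 0.10, adjusted p-value 0.00681) in the authors' deposited table. The other two were not called. Mad2l1, the MAD2 protein that is converted at unattached kinetochores, stood at 0.050 (SE 0.14, adjusted p-value 0.836) in the authors' deposited table. The kinase Bub1 stood at -0.065 (SE 0.15, adjusted p-value 0.803) there. The 95% intervals were -0.23 to 0.33 for Mad2l1 and -0.36 to 0.23 for Bub1. The interval of Bub1b, 0.31 to 0.65, did not overlap that of its paralog Bub1.

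Of the 8 kinetochore genes, 3 were called positive and 0 negative in the authors' deposited table, and the median was 0.19. The called genes were Cenpe at 0.34 (SE 0.100), the motor that moves chromosomes to the spindle equator, Cenpf at 0.28 (SE 0.085) and Knl1 at 0.28 (SE 0.098), the scaffold on which checkpoint proteins gather, in the authors' deposited table. All 3 are large proteins of the outer kinetochore. The 4 subunits of the Ndc80 complex, which grips the microtubule end, were not called. The authors' deposited table gave 0.21 (SE 0.087, adjusted p-value 0.0558) for Spc25, 0.17 (SE 0.085, adjusted p-value 0.125) for Ndc80, 0.053 (SE 0.090, adjusted p-value 0.718) for Spc24 and -0.045 (SE 0.11, adjusted p-value 0.811) for Nuf2. Their intervals ended at or below 0.38, so a change of 0.5 on the log2 scale lay outside each of them. Cenpa, the centromeric histone, was at 0.15 (SE 0.073, adjusted p-value 0.118) in the authors' deposited table, with an interval of 0.0038 to 0.29.

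The Aurora and Polo kinases among the 48 genes, Aurka, Aurkb and Plk1, were all called positive, with values close together. Aurka, which matures centrosomes and builds the spindle, had a log2 fold change of 0.46 (SE 0.087, adjusted p-value 1.31e-06) in the authors' deposited table. Plk1, a Polo kinase, had 0.43 (SE 0.086, adjusted p-value 4.77e-06) there. Aurkb, the kinase of the chromosomal passenger complex that corrects faulty attachments, had 0.46 (SE 0.10, adjusted p-value 4.3e-05) in the authors' deposited table. Its scaffold Incenp and the survivin gene Birc5 were also called, at 0.38 (SE 0.095) and 0.29 (SE 0.091) in the authors' deposited table, while Cdca8, which encodes borealin, was not, at 0.14 (SE 0.087, adjusted p-value 0.24). The 4 passenger genes thus ran from 0.14 to 0.46, and their intervals overlapped one another. Across the groups, 6 of 7 protein kinases were called positive in the authors' deposited table, and the median of the 7 was 0.46. The called kinases were Aurka, Aurkb, Plk1, Cdk1, Ttk and Cit, and Bub1 was not called. Citron kinase, encoded by Cit, is counted here although its role in division is mainly that of a scaffold. The set was picked after the values were seen and does not stand for mitotic kinases in general. In the further lists described below, Wee1 (0.30), Haspin (0.32) and Plk3 (0.39) were called positive in the authors' deposited table. Nek9 (-0.35), Rock1 (-0.30) and Rock2 (-0.48) were called negative there, and Nek2, Nek6, Nek7, Mastl, Plk4 and Pkmyt1 were not called.

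In the group of Cdk1, cyclins and Cdc25, Cdk1 and cyclin B1 were called positive and the others were not called. Cdk1 had a log2 fold change of 0.58 (SE 0.085, adjusted p-value 2.61e-10) in the authors' deposited table, which is 1.49-fold, and Ccnb1 had 0.52 (SE 0.091, adjusted p-value 1.75e-07). Ccnb2, the second B-type cyclin, was at 0.019 (SE 0.073, adjusted p-value 0.884) in the authors' deposited table. The intervals of the B-type cyclins, 0.34 to 0.70 for Ccnb1 and -0.12 to 0.16 for Ccnb2, did not overlap. Ccna2, the cyclin A of S phase and early mitosis, was not called at 0.14 (SE 0.12, adjusted p-value 0.402) in the authors' deposited table. Of the phosphatases that activate Cdk1, Cdc25b had 0.44 (SE 0.19, adjusted p-value 0.0542) and Cdc25c -0.10 (SE 0.12, adjusted p-value 0.583) in the authors' deposited table. Cdc25b had the lowest mean normalized count of the 48 genes, 695.4, and was the only uncalled gene whose interval, 0.080 to 0.81, reached past 0.5. It passed the threshold when the p-values were readjusted over genes whose mean count reached 100.

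Anaphase regulators held both extremes. Ube2c, the ubiquitin-conjugating enzyme that works with the anaphase-promoting complex, had the most positive value of the 48 genes in the authors' deposited table, 0.90 (SE 0.070, adjusted p-value 4.34e-35), or 1.86-fold. Pttg1, which encodes securin, the inhibitor and chaperone of separase, had the most negative, -1.21 (SE 0.15, adjusted p-value 6.25e-14), or 0.433-fold, in the authors' deposited table. Pttg1 was the single called negative gene, and the next lowest, Foxm1, stood at -0.10. Espl1, which encodes separase itself, had 0.36 (SE 0.082, adjusted p-value 8.7e-05) in the authors' deposited table, so the inhibitor and its enzyme had opposite signs. The interval of Pttg1 was -1.51 to -0.91 and that of Espl1 0.20 to 0.52. Sgo1, shugoshin, which guards centromeric cohesin, had 0.40 (SE 0.083, adjusted p-value 1.28e-05) in the authors' deposited table. Cdc20, the activator that recruits securin and cyclin B to the complex, was not called at 0.21 (SE 0.11, adjusted p-value 0.153) in the authors' deposited table.

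The 7 genes of the spindle and chromosome structure group were all called positive in the authors' deposited table, and their median was 0.47. Other spindle genes and the condensin genes are in the further lists described below. Nusap1, which bundles spindle microtubules, had 0.81 (SE 0.097, adjusted p-value 2.36e-15), the second most positive value in the authors' deposited table. Top2a, the topoisomerase that untangles sister chromatids and the mitotic gene with the highest mean normalized count (28164), had 0.60 (SE 0.095, adjusted p-value 5.36e-09) in the authors' deposited table. Kif2c, the kinesin that depolymerizes microtubules at centromeres, followed at 0.54 (SE 0.085, adjusted p-value 5.01e-09) in the authors' deposited table. The bipolar spindle motor Kif11 had 0.47, the Aurora A activator Tpx2 0.42, the spindle proteins Hmmr 0.35 and Dlgap5 0.32 in the authors' deposited table. Together these 7 genes spanned 0.32 to 0.81.

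In the cytokinesis group, 8 of 9 genes were called positive and 0 negative in the authors' deposited table, and the median was 0.35. The largest was Cit at 0.75 (SE 0.11, adjusted p-value 7.33e-11), followed by Ect2, the exchange factor that activates RhoA at the equator, at 0.65 (SE 0.073, adjusted p-value 9.01e-18) in the authors' deposited table. Prc1, which bundles the antiparallel microtubules of the central spindle, had 0.59 (SE 0.099, adjusted p-value 3.63e-08) in the authors' deposited table. The centralspindlin pair that recruits Ect2 was lower than Ect2, with Kif23 at 0.31 (SE 0.095) and Racgap1 at 0.22 (SE 0.078) in the authors' deposited table. The interval of Ect2, 0.51 to 0.80, did not overlap those of Kif23, 0.12 to 0.50, and Racgap1, 0.068 to 0.37. Kif20b had 0.49 (SE 0.093), Kif20a, which carries the passenger complex to the midzone, 0.35 (SE 0.14) and the ring scaffold Anln 0.23 (SE 0.092) in the authors' deposited table. Kif4, a chromosome-bound kinesin that limits the length of the midzone, was not called at 0.13 (SE 0.087, adjusted p-value 0.255) in the authors' deposited table. The calls of Kif20a and Anln had adjusted p-values of 0.0449 and 0.0434 and did not survive centring on the median of all genes.

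Both genes of the last group, often read as general signs of proliferation, were not called. Mki67, the Ki-67 protein that coats mitotic chromosomes, had a log2 fold change of 0.057 (SE 0.088, adjusted p-value 0.685) and Foxm1, a transcription factor of G2 and M phase genes, -0.10 (SE 0.11, adjusted p-value 0.521) in the authors' deposited table. Their intervals were -0.11 to 0.23 and -0.31 to 0.11. Of the 16 uncalled genes, 15 had an interval that stayed within 0.5 of 0 on the log2 scale in both directions, and 4 had an unadjusted p-value under 0.05 (Cdc25b, Spc25, Cenpa and Ndc80).

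Side by side, the share of positive calls in the authors' deposited table was 7 of 7 for spindle and chromosome structure, 8 of 9 for cytokinesis, 5 of 6 for the passenger, Aurora and Polo genes, 3 of 5 for the checkpoint, 3 of 5 for anaphase control, 3 of 8 for the kinetochore and 2 of 6 for Cdk1, cyclins and Cdc25. The medians of these groups in the authors' deposited table ran from 0.19 for the kinetochore to 0.47 for spindle and chromosome structure. Genes share libraries and are not replicates, so these differences between groups were not tested. With the fold changes centred on the ribosomal protein genes, 9 of the positive genes were no longer called: Ttk, Cenpf, Knl1, Birc5, Hmmr, Kif20a, Kif23, Anln and Racgap1. The positive calls of the cytokinesis group then came to 4 and those of the kinetochore group to 1.

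Levels can be compared between genes only per transcript length. The mean normalized count per kilobase of the longest GENCODE M21 transcript was highest for Ccnb1 (7569), Cdc20 (5956) and Top2a (5394), and lowest for Cit (152.9), Cdc25b (225.1) and Knl1 (288.7). Ccnb2 had 3492 per kilobase, the fourth highest level, and Ube2c 3409, the fifth. The genes with no call thus included some of the most abundant, and the positive gene Cit was the least abundant on this scale. If the cells mainly used a shorter transcript than the longest one, the value per kilobase would be too low.

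Promoters were examined because genes of G2 and mitosis are known to share elements near their start sites, namely the CHR (cell-cycle genes homology region), bound through the MuvB complexes, and CCAAT boxes, bound by NF-Y. RefSeq promoter windows (GRCm38.p6, 250 bases before to 50 after the start) were matched by symbol for 39 of the 48 genes, in 42 windows. The stretches below show the 120 bases before the start site for the genes on which the results turn: 3 of the positive genes over 0.5 with motifs in the printed bases (Ube2c, Cdk1, Top2a), separase and securin with opposite signs (Espl1, Pttg1), the B-type cyclins, whose intervals did not overlap (Ccnb1, Ccnb2), and Nusap1, the second most positive gene. Capitals mark TTTGAA or TTCGAA (CHR) and CCAAT on either strand, so that TTCAAA and ATTGG are the same elements read on the other strand. All are written 5′ to 3′ on the strand of the gene.
Ube2c: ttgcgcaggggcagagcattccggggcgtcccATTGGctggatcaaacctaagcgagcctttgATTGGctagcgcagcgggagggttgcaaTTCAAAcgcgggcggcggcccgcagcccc
Cdk1: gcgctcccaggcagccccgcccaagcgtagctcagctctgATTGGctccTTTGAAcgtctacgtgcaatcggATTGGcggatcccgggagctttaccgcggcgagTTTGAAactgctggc
Top2a: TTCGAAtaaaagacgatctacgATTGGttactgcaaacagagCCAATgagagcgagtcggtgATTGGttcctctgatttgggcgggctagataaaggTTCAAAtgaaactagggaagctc
Espl1: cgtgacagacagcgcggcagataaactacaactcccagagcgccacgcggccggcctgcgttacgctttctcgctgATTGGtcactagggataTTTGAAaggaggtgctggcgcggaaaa
Ccnb1: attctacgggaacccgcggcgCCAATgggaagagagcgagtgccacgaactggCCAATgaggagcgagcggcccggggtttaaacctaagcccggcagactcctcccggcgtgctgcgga
Ccnb2: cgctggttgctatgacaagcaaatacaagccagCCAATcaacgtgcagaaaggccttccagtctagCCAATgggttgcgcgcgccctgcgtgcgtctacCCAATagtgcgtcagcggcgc
Nusap1: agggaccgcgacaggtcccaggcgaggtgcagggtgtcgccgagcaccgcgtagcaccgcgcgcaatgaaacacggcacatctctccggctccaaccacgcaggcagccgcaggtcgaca
Pttg1: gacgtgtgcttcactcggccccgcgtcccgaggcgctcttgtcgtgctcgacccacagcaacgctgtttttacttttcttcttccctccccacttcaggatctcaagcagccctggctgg
Their positions in GRCm38.p6, a build other than that of the deposited files, are Ube2c chr2:164769809-164769928 (plus strand), Cdk1 chr10:69352913-69353032 (minus strand), Top2a chr11:99024190-99024309 (minus strand), Espl1 chr15:102296173-102296292 (plus strand), Ccnb1 chr13:100786487-100786606 (minus strand), Ccnb2 chr9:70421555-70421674 (minus strand), Nusap1 chr2:119618178-119618297 (plus strand) and Pttg1 chr11:43425982-43426101 (minus strand).

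In these stretches Ube2c held 1 CHR match and 2 CCAAT matches, Cdk1 2 and 2, Top2a 2 and 3, and Espl1 1 and 1. Ccnb1 had 2 CCAAT matches and Ccnb2 had 3, with no CHR match in the printed bases of either. In its whole window Ccnb2 also had CHR matches at positions -167 and 5 from the start site. The window of Ccnb1 held neither TTTGAA nor TTCGAA, and other forms of the element were not searched. No match to any searched motif was found in the windows of Nusap1 and Pttg1, which says only that these letters are not there.

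Over the 39 mitotic genes with a window, 31 (79.5%) held a CHR match, against 21.7% of the 27025 genes in the promoter table. A CCAAT match was found in 28 of them (71.8%), against 41.1% in the table, and both elements in 26 (66.7%), against 9.65%. The E2F-type sites TTTCCCGC and TTTGGCGC, searched on both strands, were in 0 of the 39 and in 1.80% of the table. No searched motif contains another, and a match is not a shown binding site. The CHR matches of the mitotic genes lay near the start, with a median position of 3, where those of all promoters had a median of -125. The CCAAT matches lay further upstream, with a median of -67 against -92 in the table. Windows of Bub3, Ect2 and Prc1 were listed more than once for each gene, so some of their sites are counted more than once.

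**Figure D3:**
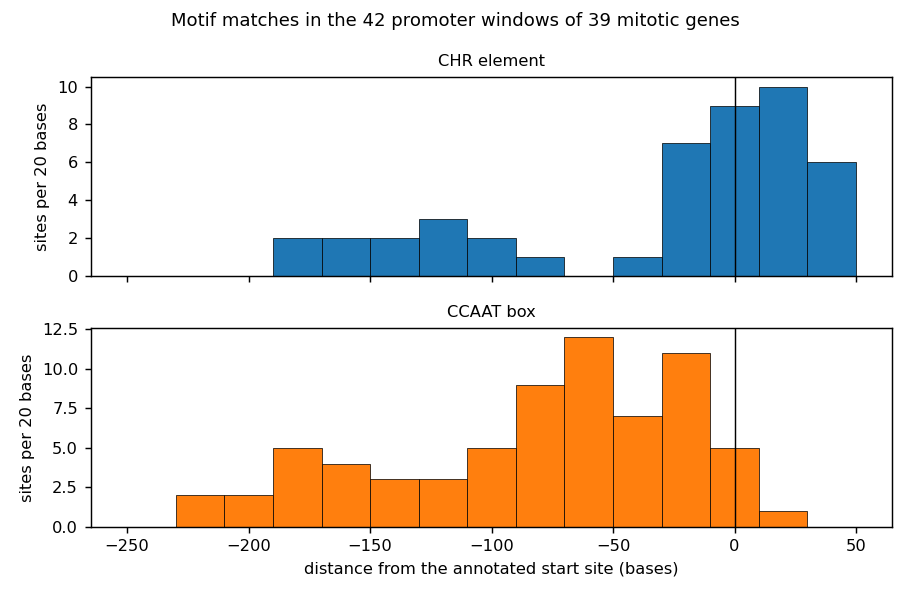
Number of CHR matches (upper panel) and CCAAT matches (lower panel) per 20 bases by distance from the annotated start site, over the promoter windows of the mitotic genes. CHR matches gather around the start site, with a median position of 3, and CCAAT matches upstream of it, with a median of -67.

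Called and uncalled mitotic genes held the motifs in similar shares. A CHR match was present in 21 of 26 positive genes (80.8%) and in 10 of 12 uncalled genes (83.3%), and a CCAAT match in 19 of 26 (73.1%) and 9 of 12 (75%). The median log2 fold change in the authors' deposited table was 0.35 for the 31 genes with a CHR match, which ranged from -0.065 to 0.90, and 0.32 for the 8 without, which ranged from -1.21 to 0.81. This is a description of overlapping distributions, without a test.

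Mitotic genes outside the 48 were called positive less often than the 48 and more often than all genes, and the shares differed between lists. In 10 further lists with 175 genes in the authors' deposited table, 40 (22.9%) were called positive and 22 (12.6%) negative, and the median was 0.062. For comparison, all genes gave 14.6% and 15.9%, and those with a mean count of 1000 or more gave 18.3% and 12.6%. The mean counts of the 175 genes reached down to 208.9. The list of the constitutive centromere and CENP-A loading had 8 of 20 genes called positive and 1 negative in the authors' deposited table. Its most positive was Cenpm at 0.90 (SE 0.11) and its called negative gene was Cenpk at -0.39 (SE 0.14). Further spindle assembly genes and kinesins had 8 of 27 positive and 1 negative, from Kpna2, an importin that carries spindle factors, at 0.69 (SE 0.088) to Gpsm2, which orients the spindle, at -0.39 (SE 0.12) in the authors' deposited table. Partners of the outer kinetochore gave 3 of 15 positive and 0 negative, led by Spdl1 at 0.41 (SE 0.086) in the authors' deposited table.

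**Figure D4:**
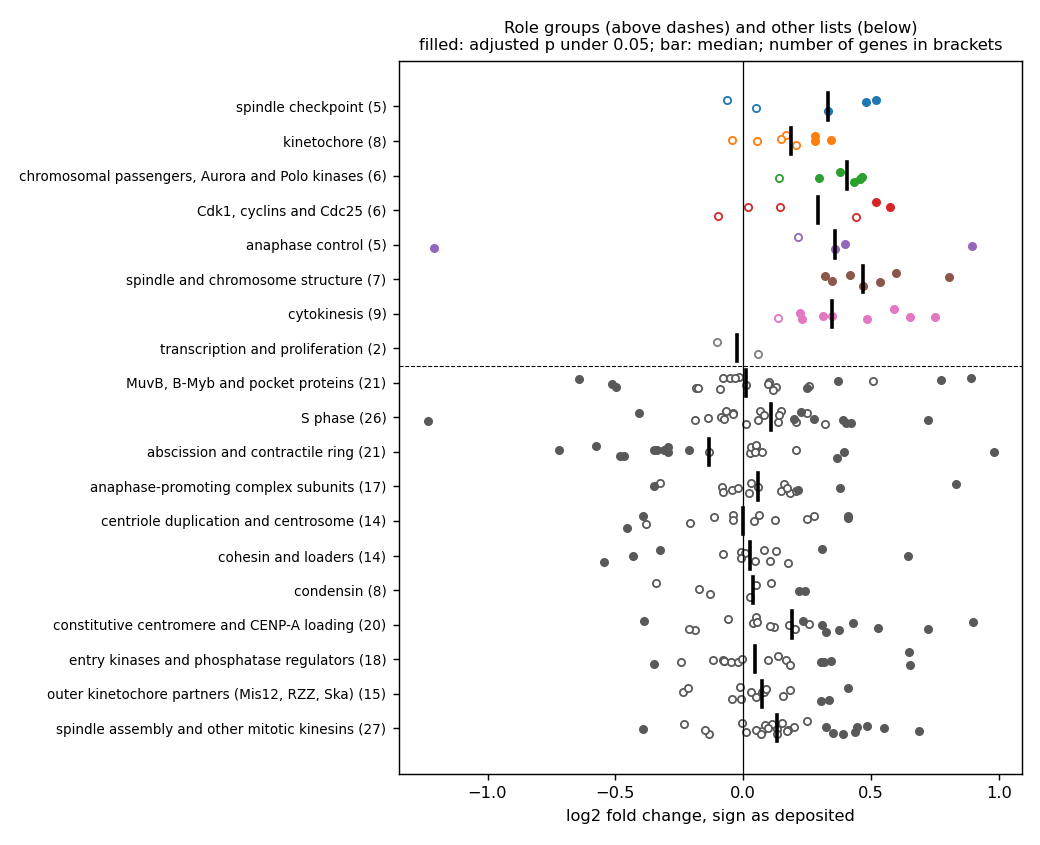
Log2 fold change, sign as deposited, of every gene in the 8 role groups (above the dashed line) and in 10 further mitotic lists and the S phase list (below), with filled points for an adjusted p-value under 0.05 and a bar at each median. The role groups other than transcription and proliferation have medians from 0.19 to 0.47, while the medians of the other lists lie between -0.14 and 0.19.

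Around the anaphase-promoting complex, Fzr1, which encodes the Cdh1 activator that follows Cdc20 in late mitosis and G1, had 0.83 (SE 0.085, adjusted p-value 1.04e-20) in the authors' deposited table. The core subunit Cdc16 had -0.35 (SE 0.081), and of 17 genes of this list 3 were called positive and 1 negative in the authors' deposited table. Ccnf, a cyclin that marks proteins for destruction, led the entry regulators at 0.65 (SE 0.10), with Nek9 lowest at -0.35 (SE 0.11) and 5 of 18 positive in the authors' deposited table. Among the regulators of transcription, E2f2 had 0.89 (SE 0.14), and Rb1, the retinoblastoma gene, -0.64 (SE 0.18) in the authors' deposited table. Of the 21 genes of that list, 4 were called positive and 3 negative. Over all genes the shares were 14.6% positive and 15.9% negative.

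Cohesin genes held both signs, with Esco2, which acetylates cohesin in S phase, at 0.64 (SE 0.11) and the subunit Stag2 at -0.54 (SE 0.11), and 2 of 14 were positive and 3 negative in the authors' deposited table. Of 8 condensin genes 2 were positive and 0 negative, the higher being Ncaph at 0.24 (SE 0.077) in the authors' deposited table. Centrosome genes had 2 positive and 2 negative of 14, from Cep192 at 0.41 (SE 0.073) to Nedd1 at -0.45 (SE 0.10) in the authors' deposited table. Over all genes 14.6% were called positive and 15.9% negative, close to the 14.3% and 14.3% of the centrosome genes.

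The abscission and contractile ring list held more negative than positive calls. Of its 21 genes with a row in the authors' deposited table, 10 were called negative and 3 positive, and the median was -0.14. Over all genes 15.9% were called negative and 14.6% positive. Those with a mean count of 1000 or more gave 12.6% and 18.3%. Myh10, a non-muscle myosin heavy chain of the ring and of the actin cortex, was lowest at -0.72 (SE 0.091), while Cep55, which opens abscission at the midbody, was the most positive at 0.98 (SE 0.13) in the authors' deposited table. The negative genes were Myh10, Myh9, Rock1, Rock2, Septin7, Septin11, Kif13a, Pdcd6ip, Tsg101 and Vps4a, most of which also act outside division, in the cortex or in membrane traffic.

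S phase genes were called positive in 7 of 26 cases (26.9%) and negative in 2 (7.69%) in the authors' deposited table, and the median was 0.11. All genes gave 14.6% and 15.9%, and those with a mean count of 1000 or more gave 18.3% and 12.6%. With the fold changes centred on the ribosomal protein genes, 4 S phase genes were called positive and 2 negative. The difference between the S phase and the mitotic genes was not tested.

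Markers of other states moved in the same comparison. Of 23 listed two-cell markers 5 had a row in the authors' deposited table, and 3 of these were called positive (Calcoco2, Dppa2 and Dppa4) and 0 negative; Dppa2 and Dppa4 are also expressed in ordinary stem cells. Pluripotency markers were called positive in 12 of 16 cases and negative in 0 in the authors' deposited table. Over all genes 14.6% were called positive and 15.9% negative. Of the markers of other cell types, fibroblast markers were called negative in 7 of 9 cases, trophectoderm markers in 8 of 12, primed epiblast markers in 6 of 8 and primitive endoderm markers in 4 of 10, and the only positive call was 1 primitive endoderm gene in the authors' deposited table. The level of Krt8, an epithelial keratin, had a log2 fold change of -4.39 (SE 0.52) and that of Col1a1, a fibroblast collagen, -1.67 (SE 0.58) at a mean count of 20.9 in the authors' deposited table. Mean counts reached down to 10.1 in the fibroblast list, 13.7 in the trophectoderm list and 9.05 in the primitive endoderm list. Levels of these markers in each group are not analysed here, and their part in the values of the mitotic genes was not tested.

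Counting by the authors is not stated to use strand, so reads of genes that overlap on opposite strands cannot be told apart. In GENCODE M21 the exons of Kif20a shared 29.3% of their bases with Cdc23, those of Ube2c 22.8% with Tnnc2 and those of Kif4 15.1% with Pdzd11. Those of Cdc25c shared 12.7% with Gm3550, those of Ccna2 12.5% with Exosc9 and those of Prc1 11.1% with Rccd1. Pseudogenes named after Ccnb1, Ccnb2 and Kif4 are annotated there, and reads of these genes could have been divided between copies.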

How the data were processed

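Bulk RNA-seq of 6 samples in 2 sorted groups was used through 1 table of the authors' own comparison. Per the submitters' processing notes the tools were FastQC 0.12.1, Trimmomatic 0.39, STAR 2.7.11b, RSEM 1.3.3 and DESeq2 1.45.3 with build GRCm39. The annotation, model formula and reference group are not given in the sources used here. Per the file headers, the authors deposited the mean normalized count (a signal over all libraries), the log2 fold change with its standard error on the log2 scale, the Wald statistic (a score), and a p-value with its adjusted form. A table of counts has 6 columns whose run and barcode names match no sample label, so these were not used, and edgeR, planned for matched columns, was not run. Depth is therefore unknown here, and the authors' standard errors give the precision.

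From the deposited values 95% normal intervals, medians and counts of calls were computed (Python 3.11.15, scipy 1.17.1), with alternatives recomputed by Benjamini-Hochberg and a loess of span 0.3 (R 4.3.3) on GC content and transcript length from GENCODE M21 for 16795 of 17110 genes. These steps were tested on simulated data. The 48 genes and all lists were chosen with earlier results of these data known. Any of the 48 could be named, with full statistics for the 8 genes at each end and, for the other lists, the most positive and most negative called gene. Pairs of intervals, the kinase count, the level per kilobase, the background of genes with a mean count of 1000 or more, and the other genes named were chosen after the values were seen. A planned search of protein motifs was not run.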

Additional observations from a re-analysis of the deposited data

How the results depend on the processing

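The counts of 31 positive and 1 negative mitotic genes changed by less than 1.5 times with a threshold of 0.01, with genes of a mean count of 100 or more alone, with readjusted p-values, with both centrings and with removal of the GC and length trend, with positive counts from 22 to 32 and 1 negative gene throughout. Of all genes kept in each of these settings, 10.8% to 17% were called positive. With an absolute log2 fold change over 0.5 the positive count was 10, which the stricter limit itself produces. The median log2 fold change of 0.34 dropped to 0.25 when centred on the ribosomal protein genes, whose median was 0.093, and this centring took the positive share of all calls from 47.8% to 34.7%. It turned the signs of Ccnb2 (-0.074), Spc24 (-0.040), Mad2l1 (-0.042) and Mki67 (-0.035) and of the median of the 175 other mitotic genes (-0.031), and ended 9 calls. Without the GC and length trend the signs of Ccnb2 (-0.023), Nuf2 (0.015) and the median of Foxm1 and Mki67 (0.016) turned. None of the genes that turned was called on either side, and the causes were not tested. No paired analysis was possible because no count column could be tied to a replicate and the comparison has 1 value per gene. For the same reason leaving out a replicate, TMM normalization and a refit of the authors' DESeq2 model were not run, so whether 1 library decides a value is not answered here.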

Other observations

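The chromosomal neighbours of the genes at the extremes were listed, with 3 genes on each side that had a row in the authors' deposited table (order from GENCODE M21). Of the 6 neighbours of Pttg1, 0 were called positive and 1 negative, and their log2 fold changes in the authors' deposited table ran from -0.71 to 0.32, all above the -1.21 of Pttg1. Of the 6 neighbours of Ube2c, 1 was called positive and 3 negative in the authors' deposited table, and their median was -0.51 beside the 0.90 of Ube2c. These include Tnnc2, whose exons overlap those of Ube2c on the other strand. Of the 6 neighbours of Nusap1, 0 were called positive and 1 negative in the authors' deposited table, and their median was 0.055. Over all genes 14.6% were called positive and 15.9% negative.

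Among the S phase genes in the authors' deposited table, Pola1, a catalytic subunit of the polymerase that primes replication, was the most positive at 0.72 (SE 0.093) and Ccne2, a cyclin of the G1 to S transition, the most negative at -1.23 (SE 0.22). The value of Ccne2 is close to that of Pttg1 in the mitotic list. Mybl2, the B-Myb partner of the MuvB complex, had 0.77 (SE 0.086) in the authors' deposited table, where Foxm1, the other factor known to work with that complex, was not called. These genes were named after their values were seen.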
